A study of Mus musculus with 10 samples.

Results

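Gene expression in mouse haematopoietic stem and progenitor cells (HSPC) that carry 1 Flt3 allele with an internal tandem duplication (Flt3-ITD) was compared with that in wild-type (WT) HSPC. The genes examined were all those with at least 1 RPKM (reads scaled to gene length and library size), in at least 2 of the 4 libraries of these groups. This left 8935 of the 16771 genes listed. Of these, 8391 reached the minimum in all 4 libraries, 186 only in both WT libraries and 28 only in both Flt3-ITD libraries. Those 28 could be tested only because they were higher in Flt3-ITD, so the filter partly fixed their direction. Among genes named below, they include Lcn2, Hspa1b, Hspa1a, Klf2, Xaf1, Iigp1 and Upk1b, and the list counts include such genes. Lztfl1, with a second highest value of 1.00078 RPKM, lay just inside the minimum and Peg12, at 0.999807 RPKM, just outside.

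All libraries came from bone marrow of C57BL/6 mice, with 2 libraries in each group. The HSPC were the lineage-negative cells left after lysis of red cells and magnetic depletion of cells with mature lineage markers, so each library is a mixture of stem cells, progenitors and any mature cells that remained. The 2 groups compared were labelled Wild-type and Flt3ITD/+, and no Cre recombinase is named for either. Set beside them were HSPC of the genotype Npm1flox-cA/+;Mx1-Cre+ (Npm1c), HSPC with both mutations, labelled Npm1flox-cA/+;Flt3ITD/+;Mx1-Cre+ and called double mutant here, and WT neutrophils taken with a magnetic isolation kit. Mx1-Cre is driven by an interferon-inducible promoter, and no induction, age or sex is given in the sources used here. The submitters call the replicates biological, but nothing says that each came from a separate animal, so p-values measure the spread between these libraries. In such bulk samples, fewer cells of a type and less RNA per cell cannot be told apart.

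FLT3 is a receptor tyrosine kinase of early multipotent and lymphoid-primed progenitors and dendritic cell precursors. An internal tandem duplication lengthens its juxtamembrane segment, which normally holds the kinase inactive, and the receptor then signals without ligand through STAT5, RAS-MAPK and PI3K-AKT. The duplication is frequent in acute myeloid leukaemia, often together with mutant NPM1, and in mice it is known for enlarging the myeloid compartment without causing acute leukaemia by itself.

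Among the largest rises were secondary and tertiary granule genes of late neutrophil precursors, most of which rose together, and the inducible heat shock gene Hspa1b. The upstream sequences of 4 of these genes are shown so that the letters of the factors known for such promoters can be seen in them. The sequences are RefSeq promoters on GRCm38.p6, the build that mm10 names, and each is limited to the bases upstream of both the RefSeq and the GENCODE M21 gene start. Capitals mark matches, on either strand, to TTGCNNAA, the letters of a C/EBP site, in the first 3, and to GAANNTTC or TTCNNGAA, an overlapping pair of heat shock factor half-sites, in Hspa1b, and Chil3 holds no match. Ngp (neutrophilic granule protein) lies on the plus strand at chr9:110419558-110419746, Ltf (lactotransferrin) on the plus strand at chr9:111019042-111019270, Chil3 (chitinase-like 3) on the minus strand at chr3:106167565-106167814 and Hspa1b (an inducible HSP70) on the minus strand at chr17:34959239-34959488.
Ngp: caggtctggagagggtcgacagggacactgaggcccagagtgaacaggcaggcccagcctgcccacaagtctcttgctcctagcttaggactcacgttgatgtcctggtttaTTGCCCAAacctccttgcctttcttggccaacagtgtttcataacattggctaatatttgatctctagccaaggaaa
Ltf: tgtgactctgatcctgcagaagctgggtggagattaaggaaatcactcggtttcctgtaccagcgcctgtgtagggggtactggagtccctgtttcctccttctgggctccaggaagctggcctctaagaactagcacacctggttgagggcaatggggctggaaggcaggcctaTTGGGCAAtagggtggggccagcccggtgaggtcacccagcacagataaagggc
Chil3: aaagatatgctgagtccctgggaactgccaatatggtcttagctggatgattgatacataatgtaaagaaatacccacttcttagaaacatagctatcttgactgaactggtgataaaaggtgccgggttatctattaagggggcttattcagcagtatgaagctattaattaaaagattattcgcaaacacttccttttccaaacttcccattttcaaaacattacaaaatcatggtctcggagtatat
Hspa1b: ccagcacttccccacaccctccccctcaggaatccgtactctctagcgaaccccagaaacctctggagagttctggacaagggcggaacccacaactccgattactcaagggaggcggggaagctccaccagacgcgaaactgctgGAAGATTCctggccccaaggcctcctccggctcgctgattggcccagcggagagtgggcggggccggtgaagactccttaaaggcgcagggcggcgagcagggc
C/EBP factors, above all C/EBP epsilon, are known to drive secondary granule genes, and heat shock factor 1 drives HSP70 genes. Over the whole 250 bases upstream of the RefSeq start, TTGCNNAA was found in 6 of the 11 promoters available for the 13 late neutrophil genes that rose, and in 9.56% of all 32851 promoters in the table. The heat shock letters were found for 7 of 17 heat shock and chaperone genes and for 14.5% of all genes in the table. GAAANNGAAA, the core of an interferon-stimulated response element, was found for 12 of 21 interferon response genes and for 3.46% of all genes. These 2 counts cover all list members tested that had a promoter, whether or not they rose. Of the heat shock genes that rose, Hspa1b held a match and Cacybp none. Of the interferon genes that rose, Xaf1 held no match, and Ifi27l2a and Iigp1 had no promoter available. A match describes the letters of these windows and is not evidence of binding, and these sets were chosen after their changes were known.

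The 2 Flt3-ITD libraries differed from each other more than the replicates of the other groups. The standard deviation of the log2 difference between replicates over the tested genes was 0.227 for Flt3-ITD, against 0.0865 for WT and 0.0877 to 0.156 for the other groups. At least 2-fold differences between replicates were seen for 34 genes in Flt3-ITD and for 0 in WT HSPC. Transcripts of 4 Y-linked genes were present in Flt3-ITD replicate 1, at a summed 13.6 RPKM, and at or near 0 in replicate 2 and in both WT libraries, so the Flt3-ITD libraries do not come from animals of 1 sex alone. The values rest on 50227463 to 57824373 reads per library in the RPKM denominators, of which 74.4% and 74.1% in WT and 69.5% and 63.5% in Flt3-ITD fell on listed genes. The progenitor markers Kit, at 12.2 to 13.9 RPKM, and Cd34, at 14.4 to 26.2 RPKM, were present in all 4 libraries, while the T cell marker Cd3e stayed at or below 0.0800 RPKM.

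Few genes passed the test between Flt3-ITD and WT HSPC. Of the genes tested, 13 of 18 late neutrophil genes rose, and 13 of 23 platelet genes and 6 of 13 plasma cell genes fell. Single genes of the heat shock, interferon, immediate early and cell cycle groups changed, and so did several histone genes. All values below are RPKM after median-of-ratios scaling, and changes are differences of log2(RPKM + 0.5) with their standard error (SE), which understate the change of genes of low level. With limma and a Benjamini-Hochberg adjusted p under 0.05, 74 genes were higher in Flt3-ITD (0.828% of those tested) and 149 were lower (1.67%). The groups did not overlap in any of these 223. Both Flt3-ITD libraries also lay above both WT libraries in 29.6% of all genes tested and below both in 30.9%. Separate groups, here and below, thus add little to a call. The smallest change called was 0.36 on the log2 scale, and the median change over all genes was 0.004. At an unadjusted p under 0.05, 1123 genes (12.6%) were higher and 1294 (14.5%) lower, the shares against which such counts in the gene lists are to be read. Counts of calls in the lists are to be read against 0.828% higher and 1.67% lower. Among the 223 genes called, 24 were at least 2-fold above the WT mean in both Flt3-ITD libraries (0.269% of those tested). Another 12 were at least 2-fold below it in both (0.134%). A change of that size in replicate 1 alone was seen for 21 genes upward and 10 downward, and in replicate 2 alone for 9 upward and 10 downward. Ifitm1 and Hspa1a upward and Col1a1 downward were also 2-fold in both libraries but missed the threshold, with adjusted p of 0.0698, 0.0603 and 0.0580 in limma.

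The number of calls depended on which libraries were fitted. Without WT replicate 1 or without WT replicate 2, 5 genes were called higher and 1 lower, and all 6 were among the 36 that were 2-fold in both libraries. Without Flt3-ITD replicate 1 the counts were 1476 and 1677, and without replicate 2 they were 1776 and 1681. With 1 library left in a group, the spread came from the pair of the other group alone. Counts from such fits, here and below, thus do not measure the spread of the lone library. On the scale of the deposited values 43 genes were higher and 794 lower, because that scale moved the changes by a median of -0.155. All 36 genes that were 2-fold in both libraries were still called there. Gene length moved with the direction of the calls: the median exonic length was 2052 bases in genes called higher and 4926.5 in genes called lower, against 4404 in all genes tested, and its part in the result was not tested.

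**Figure D1:**
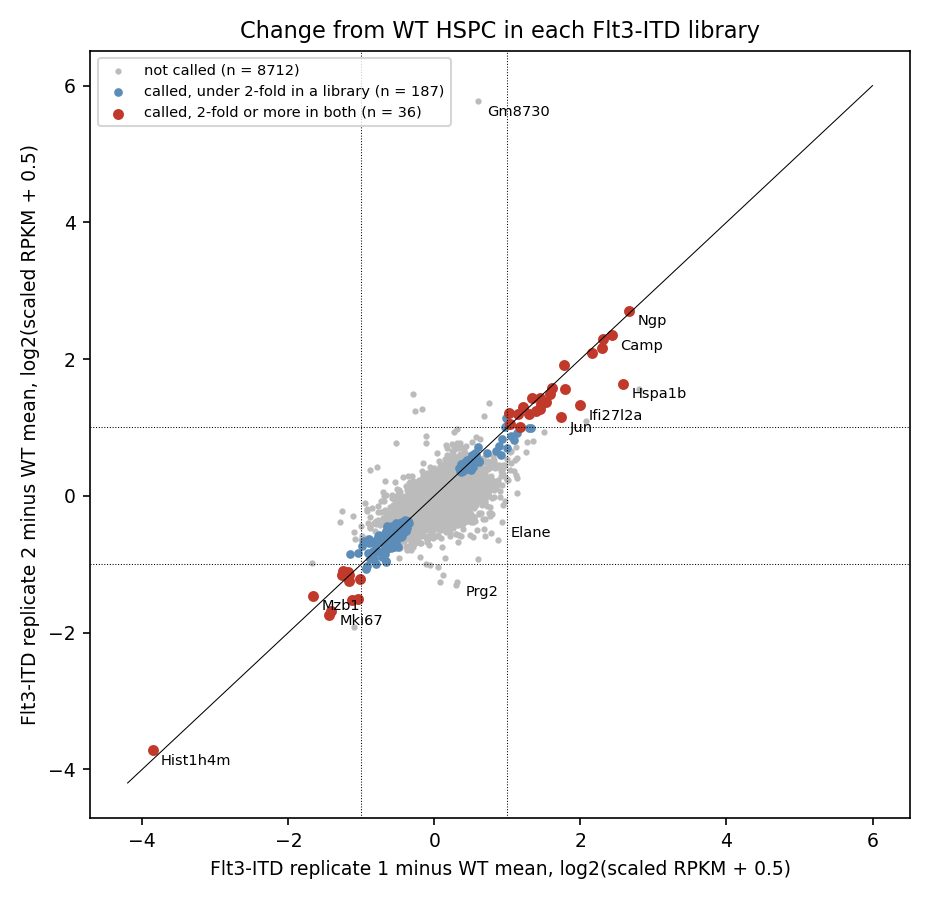
Difference from the WT mean of each tested gene in Flt3-ITD replicate 1 (x axis) and replicate 2 (y axis), in log2(scaled RPKM + 0.5); each point is 1 gene, the dotted lines mark 2-fold and the solid line equal change. The 36 genes called and at least 2-fold in both libraries (red) run from Hist1h4m, lowest in both, to Ngp, while Elane and Prg2 lie away from the line.

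The targeted gene was examined first. Flt3 (chr5:147330741-147400489, minus strand, GRCm38) was at 5.02 and 4.93 RPKM in the WT libraries and at 5.19 and 4.15 in the Flt3-ITD libraries. The groups overlapped, and the change of -0.09 ± 0.109 (SE) on the log2 scale did not pass the test (limma adjusted p = 0.634). Without Flt3-ITD replicate 1 the change was -0.24, and without replicate 2 it was 0.06. A gene total does not separate the duplicated from the normal allele, so it does not check the genotype.

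Direct targets of STAT5 were the signalling genes nearest to the receptor. Socs2, a feedback inhibitor induced by STAT5, lay below the minimum for testing: it was at 0.0445 and 0.0321 RPKM in WT, on 52 and 39 reads, and at 1.09 and 0.635 in Flt3-ITD, on 1170 and 566 reads. Both Flt3-ITD libraries were thus far above both WT libraries, and Npm1c HSPC, at 0.0622 and 0.0435, lay with WT. Cish, another STAT5-induced inhibitor, was also too low for the test, at 0.121 and 0.102 RPKM in WT and 0.231 and 0.221 in Flt3-ITD. Pim1, a STAT5-induced kinase, was at 14.6 and 14.5 RPKM in WT and 17.4 and 19.1 in Flt3-ITD, without overlap but short of the threshold (log2 change 0.32 ± 0.0664, limma adjusted p = 0.0752). Ccnd2, which encodes cyclin D2, was at 7.08 and 5.88 in WT and 11.6 and 9.92 in Flt3-ITD (limma adjusted p = 0.0566). Of the 12 STAT5 and cytokine signalling targets tested, 0 were called higher by limma, with 5 higher and 4 lower at an unadjusted p under 0.05 (12.6% and 14.5% of all genes), and 1 was called lower: Lrrc32, a TGF-beta docking receptor, fell by 0.55 on the log2 scale (limma adjusted p = 0.0469). The median of the list was 0.06. In the list, 6 members had both Flt3-ITD libraries above both WT libraries, against 29.6% of all genes tested, and 4 had both below, against 30.9%.

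Among feedback and other target genes of the RAS-MAPK pathway, 1 rose and 2 fell. Dusp5, a phosphatase that inactivates nuclear ERK, rose from 1.16 and 1.26 RPKM in WT to 3.13 and 2.50 in Flt3-ITD (log2 change 0.95 ± 0.110, limma adjusted p = 0.0336). Spry4, a Sprouty inhibitor of receptor signalling, fell from 0.969 and 1.003 RPKM to 0.250 and 0.398 (limma adjusted p = 0.0381), and Ccnd1, which encodes cyclin D1, fell from 3.42 and 3.45 to 1.55 and 1.37 (log2 change -1.01 ± 0.0737, limma adjusted p = 0.0121). Each of these 3 genes had separate groups, with replicate 1 the higher Flt3-ITD library in Dusp5 and Ccnd1 and the lower in Spry4. The other 9 of the 12 tested members were not called, the median of the list was -0.02, and without Flt3-ITD replicate 1 and 2 the calls were 3 and 4 higher and 5 and 4 lower. Among them, Etv5, an ETS factor induced by ERK, was at 1.76 and 1.66 RPKM in WT and 0.600 and 0.908 in Flt3-ITD (limma adjusted p = 0.0529), and Dusp1, a broad MAP kinase phosphatase, at 1.53 and 1.66 in WT and 4.52 and 3.11 in Flt3-ITD (limma adjusted p = 0.0542). Of 13 FOXO and PI3K-AKT response genes, Klf2 was called higher and 0 were called lower by limma, with 2 higher and 1 lower at an unadjusted p under 0.05. Of 23 receptor kinases and cytokine receptors, 0 were called by limma in either direction, with 4 higher and 2 lower at an unadjusted p under 0.05.

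Genes of late neutrophil precursors were among the largest rises. Of 18 such genes tested, 13 rose and 0 fell by limma's test (0.828% and 1.67% of all genes). No member was lower at an unadjusted p under 0.05 (14.5% of all genes). The median change was 1.45 on the log2 scale, at 1.49 in replicate 1 and 1.40 in replicate 2. Ngp, a secondary granule protein, was at 12.7 and 10.5 RPKM in WT and at 76.2 and 78.2 in Flt3-ITD (log2 change 2.69 ± 0.0984, limma adjusted p = 0.00280). Camp, the cathelicidin antimicrobial peptide, was at 4.05 and 4.07 in WT and at 24.1 and 22.7 in Flt3-ITD (2.39 ± 0.0597, limma adjusted p = 0.000836). The 2 libraries of a group lay close together for both genes, and the groups were more than 5-fold apart. Chil3 was at 2.39 and 2.10 RPKM in WT and 13.02 and 12.94 in Flt3-ITD (log2 change 2.30 ± 0.0740), Ltf, the iron-binding protein of secondary granules, at 1.46 and 1.12 in WT and 5.58 and 6.198 in Flt3-ITD (1.84 ± 0.115), and Lcn2, which binds bacterial siderophores, at 0.745 and 0.611 in WT and 3.58 and 2.98 in Flt3-ITD (1.68 ± 0.109). The calprotectin subunits S100a9 and S100a8 rose as well: S100a9 was at 25.0 and 16.7 RPKM in WT and 102 and 93.3 in Flt3-ITD, and S100a8 at 17.8 and 13.6 in WT and 71.0 and 67.7 in Flt3-ITD. Lcn2 was under 1 RPKM in both WT libraries and entered the test only through Flt3-ITD.

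The remaining neutrophil members named here rose by less. Cd177, a neutrophil surface glycoprotein, rose by 1.59 ± 0.0762, Wfdc21, a whey acidic protein family member, by 1.45 ± 0.0816, Ifitm6 by 1.44 ± 0.106 and Mmp8, the neutrophil collagenase, by 1.25 ± 0.0718 on the log2 scale, with limma adjusted p from 0.00597 to 0.0121. For every neutrophil gene named, both Flt3-ITD libraries lay above both WT libraries. Summed over the 26 members in the tables, the list stood at 98.8 and 79.2 RPKM in WT, 365 and 341 in Flt3-ITD and 220358 and 220247 in WT neutrophils, and the Flt3-ITD means of Ngp, Camp, Chil3, S100a8 and S100a9 were 0.231%, 0.218%, 0.299%, 0.144% and 0.127% of the neutrophil means. Ly6g, the surface marker of neutrophils, was at 0.240 and 0.205 RPKM in WT and 1.05 and 0.893 in Flt3-ITD. No value here separates a few mature cells that escaped depletion from low expression in many progenitors. The count of 13 became 5 without either WT library, 6 when all 8 HSPC libraries were fitted, 0 when either WT library was left out of that fit, 3 when either a term for Y-linked expression was added to it or the filter was dropped, and 13 with 3 members lower without Flt3-ITD replicate 1.

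**Figure D2:**
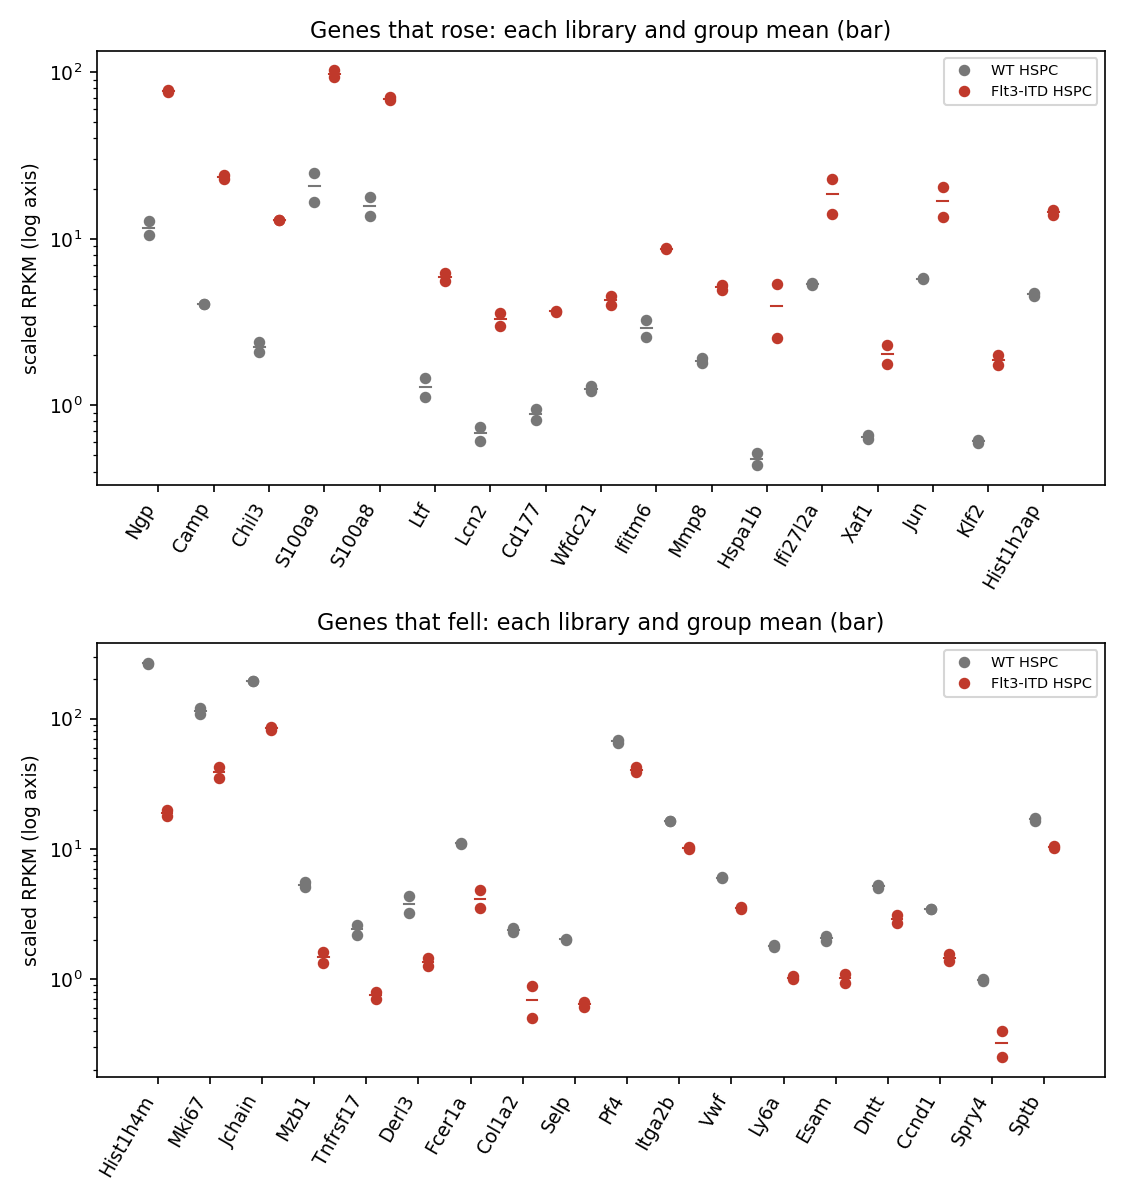
Scaled RPKM (log axis) of genes that rose (upper panel) and genes that fell (lower panel) in the 2 WT HSPC libraries (grey) and the 2 Flt3-ITD HSPC libraries (red); each point is 1 library and each bar a group mean. Ngp reached 76.2 and 78.2 in Flt3-ITD against 12.7 and 10.5 in WT, Hist1h4m was at 17.9 and 19.8 against 264 and 269, and no gene shown has overlapping groups.

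Many of the platelet and megakaryocyte genes tested fell, by similar amounts in both Flt3-ITD libraries. Of 23 such genes tested, 13 fell and 0 rose by limma's test (1.67% and 0.828% of all genes). No member was higher at an unadjusted p under 0.05 (12.6% of all genes). The median was -0.56 on the log2 scale, at -0.60 in replicate 1 and -0.53 in replicate 2. Selp, the P-selectin of platelet granules, fell most, from 2.04 and 2.01 RPKM in WT to 0.612 and 0.668 in Flt3-ITD (log2 change -1.15 ± 0.0682, limma adjusted p = 0.00861). Pf4, a platelet chemokine, was at 65.2 and 69.1 in WT and 39.0 and 42.4 in Flt3-ITD (-0.72 ± 0.0688, limma adjusted p = 0.0221), and Itga2b, the CD41 chain of the fibrinogen receptor, at 16.3 and 16.3 in WT and 10.4 and 10.1 in Flt3-ITD (-0.65 ± 0.0547, limma adjusted p = 0.0175). In all 3 genes every WT library lay above every Flt3-ITD library. F2rl2, a thrombin receptor, and Gp6, the platelet collagen receptor, each fell by 0.65, Cd9, a tetraspanin, fell by 0.71, and Zfpm1, a cofactor of GATA1, fell by 0.46. Both Flt3-ITD libraries were below both WT libraries in 21 of the 23 members, against 30.9% of all genes. The count of 13 became 20 on the deposited scale, 9 with all 8 HSPC libraries or with a replicate block, 0 without either WT library or without the filter, and 22 and 21 without Flt3-ITD replicate 1 and 2.

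Among stem cell genes, Vwf, Esam and Ly6a fell. Of 11 tested, 3 fell and 0 rose by limma's test, with 7 lower and 0 higher at an unadjusted p under 0.05 (14.5% and 12.6% of all genes), and the median was -0.42. Vwf, von Willebrand factor, fell from 5.94 and 6.07 RPKM to 3.45 and 3.56 (log2 change -0.70 ± 0.0593, limma adjusted p = 0.0175). Esam, an adhesion molecule of stem and endothelial cells, fell from 1.97 and 2.13 to 0.940 and 1.09 (-0.75 ± 0.0838), and Ly6a, which encodes Sca-1, from 1.77 and 1.84 to 1.05 and 0.998 (-0.60 ± 0.0669). Neither Flt3-ITD library reached a WT library in these 3 genes. Vwf is also among the 13 platelet genes that fell, so the 2 lists are not separate results for it. Kit, the stem cell factor receptor, was at 13.9 and 13.7 in WT and 13.05 and 12.2 in Flt3-ITD (limma adjusted p = 0.251). All 3 calls were lost without either WT library, and the count was 6 on the deposited scale and 9 and 8 without Flt3-ITD replicate 1 and 2, with 1 higher in the latter. Of 8 lymphoid-primed progenitor and early B genes tested, Dntt, the terminal transferase of early lymphoid progenitors, fell from 5.01 and 5.30 to 2.70 and 3.09 (limma adjusted p = 0.0301).

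Among plasma cell genes, those that fell included Jchain and Mzb1, which serve antibody assembly. Of 13 tested, 6 fell and 0 rose by limma's test (1.67% and 0.828% of all genes). No member was higher at an unadjusted p under 0.05 (12.6% of all genes). The median was -0.68, at -0.81 in replicate 1 and -0.59 in replicate 2. Jchain, the joining chain of secreted antibodies, was at 194 and 196 RPKM in WT and 86.5 and 82.1 in Flt3-ITD (log2 change -1.21 ± 0.0581, limma adjusted p = 0.00597). Mzb1, a chaperone of antibody assembly, was at 5.08 and 5.54 in WT and 1.33 and 1.60 in Flt3-ITD (-1.56 ± 0.0939, limma adjusted p = 0.00861). WT neutrophils were higher than either group, at 588 and 593 RPKM for Jchain and 17.5 and 15.9 for Mzb1. Tnfrsf17, the survival receptor BCMA, fell by 1.21, Derl3, of the endoplasmic reticulum degradation machinery, by 1.18, and Slamf7, a plasma cell surface receptor, by 0.75 on the log2 scale. None of the 6 was called without either WT library, 10 members were called lower without Flt3-ITD replicate 1, and 9 were called lower and 2 higher without replicate 2.

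Erythroid genes, of which the libraries hold much, showed 1 call. Sptb, the spectrin beta chain of red cells, fell from 17.3 and 16.3 RPKM to 10.1 and 10.5 (log2 change -0.68 ± 0.0610, limma adjusted p = 0.0207), and the other 30 tested were not called. The list median was -0.41 in replicate 1 and -0.09 in replicate 2, and 14 members were called lower on the deposited scale. Both Flt3-ITD libraries lay below both WT libraries in 18 members (30.9% of all genes) and above in 1 (29.6%). At an unadjusted p under 0.05 by limma, 11 members were lower and 1 higher (14.5% and 12.6% of all genes). A fit without replicate 1 or without replicate 2 takes its spread from the WT pair alone, so its calls are left out here. Among stromal and endothelial genes, Col1a2, a chain of type I collagen, fell from 2.28 and 2.45 RPKM to 0.886 and 0.502 (limma adjusted p = 0.0396), 1 of 8 tested. Fcer1a, the IgE receptor chain of basophils and mast cells, fell from 10.9 and 11.2 to 4.79 and 3.52 (log2 change -1.32 ± 0.138, limma adjusted p = 0.0275). Slc41a3, a magnesium transporter family member outside the lists, fell from 11.4 and 11.9 to 4.91 and 4.93 (-1.17 ± 0.0572, limma adjusted p = 0.00597). All WT libraries were above all Flt3-ITD libraries in these 4 genes that fell.

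**Figure D3:**
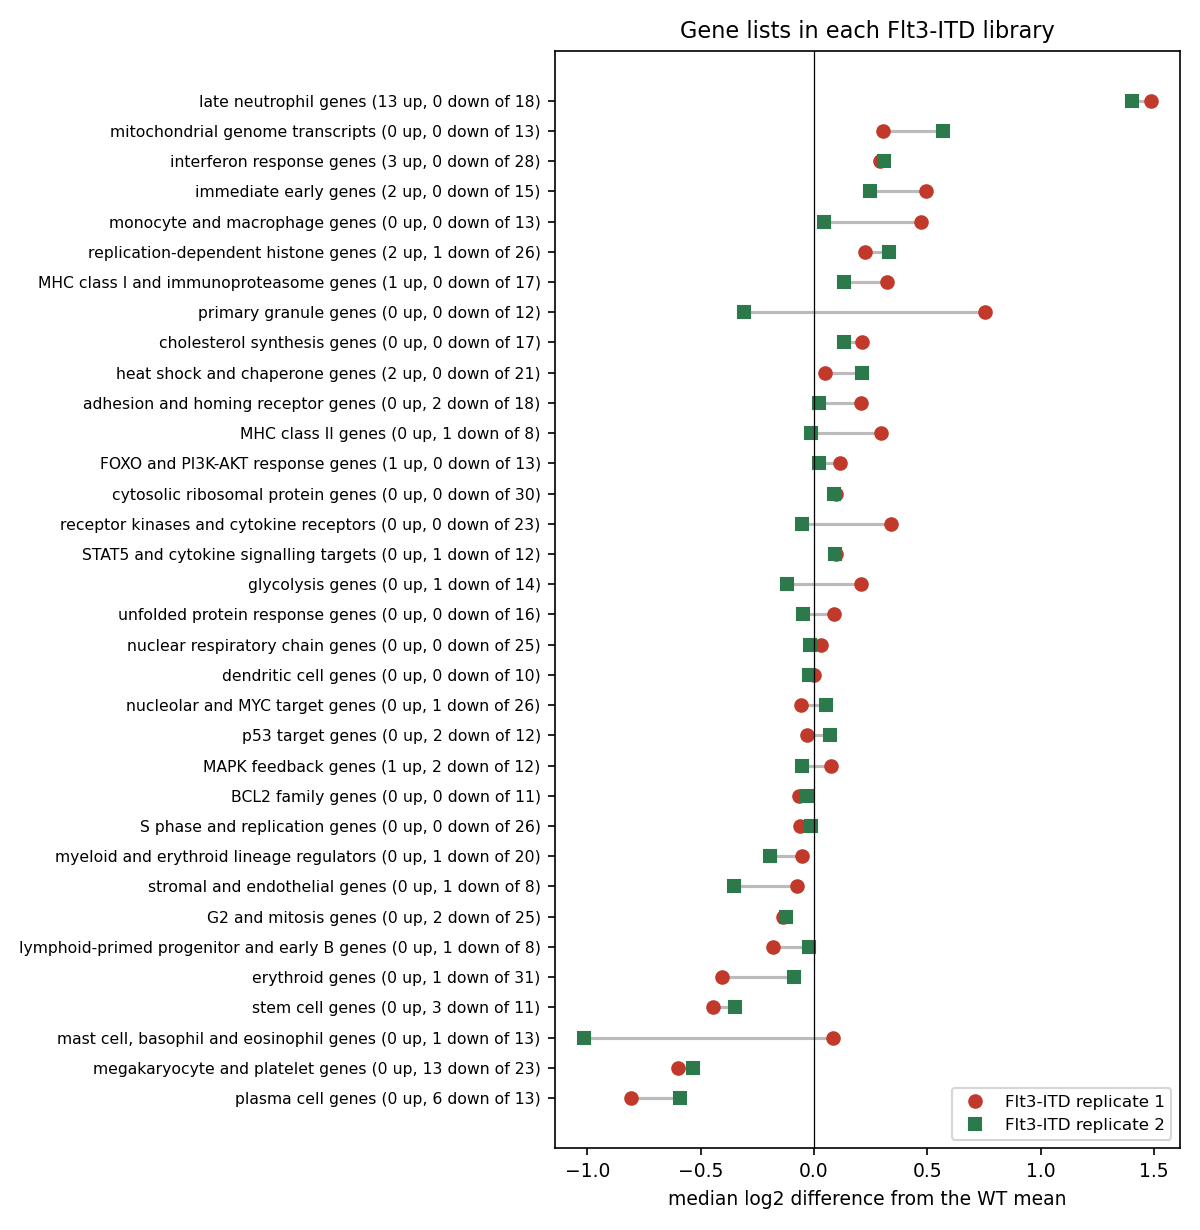
Median log2 difference from the WT mean over the tested members of each gene list with at least 8 of them, in Flt3-ITD replicate 1 (red circles) and replicate 2 (green squares); the labels give members called higher, members called lower and members tested. The late neutrophil list lies at 1.49 and 1.40 and the platelet list at -0.60 and -0.53, while the primary granule list (0.75 and -0.31) and the mast cell, basophil and eosinophil list (0.08 and -1.02) differ between the libraries.

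Single stress-inducible and immediate early genes rose, among them the inducible HSP70 gene Hspa1b and the transcription factor genes Jun and Klf2, each with replicate 1 above replicate 2. Hspa1b was at 0.520 and 0.437 RPKM in WT and 5.38 and 2.54 in Flt3-ITD (log2 change 2.11 ± 0.310, limma adjusted p = 0.0469). Its neighbour Hspa1a, whose coding sequence is nearly the same so that reads can be shared, was at 0.171 and 0.231 in WT and 4.38 and 1.56 in Flt3-ITD. The groups were separate for both genes, although the Flt3-ITD libraries differed by more than 2-fold. Both genes, and Klf2, were under 1 RPKM in both WT libraries and entered the test only through Flt3-ITD. Of 21 heat shock and chaperone genes, Hspa1b and the HSP90-associated Cacybp (0.44 ± 0.0566, limma adjusted p = 0.0396) rose and 0 fell by limma's test, with 10 higher and 5 lower at an unadjusted p under 0.05 (12.6% and 14.5% of all genes), and the list median was 0.05 in replicate 1 and 0.21 in replicate 2. Jun, an AP-1 subunit, was at 5.75 and 5.79 RPKM in WT and 20.5 and 13.4 in Flt3-ITD (log2 change 1.45 ± 0.194, limma adjusted p = 0.0421), and Klf2, a zinc-finger factor induced by MAP kinase ERK5, at 0.598 and 0.619 in WT and 2.00 and 1.74 in Flt3-ITD (1.09 ± 0.0819, limma adjusted p = 0.0123). Jun and Klf2 were the 2 members called among 15 immediate early genes, of which 12 had both Flt3-ITD libraries above both WT libraries (29.6% of all genes) and 0 were called lower by limma, with 8 higher and 0 lower at an unadjusted p under 0.05. Hspa1b was not called with a pseudocount of 1, and none of these genes was called without either WT library. Without Flt3-ITD replicate 1 and 2, 12 and 8 heat shock genes and 8 and 13 immediate early genes were called higher, while 4 and 4 heat shock genes and 1 and 0 immediate early genes were called lower.

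Of the interferon-induced genes, Ifi27l2a, Xaf1 and Iigp1 rose. Of 28 tested, 3 rose and 0 fell by limma's test, with 19 higher and 1 lower at an unadjusted p under 0.05, against 12.6% and 14.5% of all genes. The list median was 0.32 (0.29 in replicate 1 and 0.31 in replicate 2), and 21 members had both Flt3-ITD libraries above both WT libraries, against 29.6% of all genes. Ifi27l2a, a small interferon-induced mitochondrial protein, was at 5.28 and 5.40 RPKM in WT and 22.8 and 14.2 in Flt3-ITD (log2 change 1.66 ± 0.218, limma adjusted p = 0.0417). Xaf1, an antagonist of the apoptosis inhibitor XIAP, was at 0.625 and 0.662 in WT and 2.31 and 1.77 in Flt3-ITD (1.14 ± 0.117, limma adjusted p = 0.0268). Iigp1, an immunity-related GTPase, was at 0.468 and 0.501 in WT and 1.44 and 1.68 in Flt3-ITD (1.06 ± 0.0848, limma adjusted p = 0.0146). The 3 genes had separate groups, and the higher Flt3-ITD library was replicate 1 for Ifi27l2a and Xaf1 and replicate 2 for Iigp1. Xaf1 and Iigp1 were under 1 RPKM in both WT libraries and entered the test only through Flt3-ITD. H2-Q7, a non-classical MHC class I gene, rose from 1.42 and 1.24 to 2.87 and 2.54 (limma adjusted p = 0.0301), the single call among 17 MHC class I and immunoproteasome genes, 12 of which had both Flt3-ITD libraries above both WT libraries (29.6% of all genes); reads of its near-identical relatives may be shared. Cd74, the MHC class II invariant chain, fell from 11.1 and 11.0 to 7.35 and 6.38 (limma adjusted p = 0.0381), the single call among 8 MHC class II genes. With all 8 HSPC libraries in the fit, 12 interferon genes were called higher, 19 were without either Flt3-ITD library, and without either WT library none was.

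Among cell cycle genes, Mki67 fell far more than the others. Mki67 (chr7:135689784-135716361, minus strand, GRCm38), the Ki-67 protein of the mitotic chromosome surface, was at 120 and 109 RPKM in WT and 42.7 and 35.3 in Flt3-ITD (log2 change -1.55 ± 0.108, limma adjusted p = 0.0117). Cenpe, a kinetochore motor, fell from 12.8 and 11.4 to 6.84 and 6.66 (-0.79 ± 0.0754, limma adjusted p = 0.0221). Both groups were separate in both genes. The list of 25 G2 and mitosis genes had a median of -0.12, with 2 lower and 0 higher by limma's test, 11 lower and 0 higher at an unadjusted p under 0.05 (14.5% and 12.6% of all genes), and 18 members with both Flt3-ITD libraries below both WT libraries (30.9% of all genes). Of 26 S phase and replication genes, 0 were called by limma in either direction, with 6 lower and 0 higher at an unadjusted p under 0.05, and the median was -0.04. The G2 count of 2 became 9 on the deposited scale 11 with all 8 HSPC libraries and 10 without either Flt3-ITD library, and Mki67 was not called without either WT library or without the filter.

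One histone gene carried the largest change of all. Hist1h4m (chr13:21811746-21812147, plus strand, GRCm38), a replication-dependent histone H4 gene, was at 264 and 269 RPKM in WT, on 6241 and 6623 reads, and at 17.9 and 19.8 in Flt3-ITD, on 389 and 357 reads (log2 change -3.79 ± 0.0686, limma adjusted p = 0.000338). It was called under every alternative run. Hist1h4n (chr13:21831767-21832196, minus strand), chosen after its values were seen because it lies nearby in the same cluster, was at 234 and 246 RPKM in WT and 490 and 557 in Flt3-ITD. Histone H4 genes encode the same protein and are near-identical, so which copy a read was given to is uncertain. Hist1h2ap, an H2A gene of the same cluster (chr13:21833026-21833507, minus strand), rose from 4.72 and 4.54 to 14.8 and 14.0 (log2 change 1.54 ± 0.0627, limma adjusted p = 0.00384). Among the 26 histone genes tested in the list, Hist1h4i rose by 0.52 and Hist2h4 by 0.47 and Hist1h4m fell, with a list median of 0.30. The list leaves out Hist1h4n, Hist1h2ap, Hist1h2ao, Hist1h2bq, Hist2h3c2 and Hist4h4. These are named because each was called by limma and at least 2-fold from the WT mean in both Flt3-ITD libraries. Other histone genes outside the list were not counted, so the list gives no full measure of the histone changes. The list's upward calls moved with the processing: 0 were made on the deposited scale 15 were made with all 8 HSPC libraries, and 19 and 12 without Flt3-ITD replicate 1 and 2.

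Other gene groups held at most 2 calls each. Nolc1, a nucleolar phosphoprotein, fell by 0.60 (limma adjusted p = 0.0220), the single call among 26 nucleolar and MYC target genes. Hk1, the first enzyme of glycolysis, fell by 0.51 (limma adjusted p = 0.0436), 1 of 14 tested. Trp53inp1, a p53-induced stress protein, fell by 0.87 (limma adjusted p = 0.0123) and Gtse1, which restrains p53, by 0.41 (limma adjusted p = 0.0436), 2 of 12 p53 target genes. By limma 0 were called among 30 cytosolic ribosomal protein, 25 nuclear respiratory chain, 16 unfolded protein response, 17 cholesterol synthesis, 11 BCL2 family, 10 dendritic cell and 13 monocyte and macrophage genes. At an unadjusted p under 0.05, these lists held 10, 5, 2, 6, 1, 3 and 5 genes higher and 1, 2, 1, 1, 3, 1 and 0 lower, against 12.6% and 14.5% of all genes. Upk1b, a tetraspanin outside the lists, rose from 0.549 and 0.519 RPKM to 2.33 and 2.11 (log2 change 1.39 ± 0.0753, limma adjusted p = 0.00850).

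Primary granule genes, which mark promyelocytes, went apart in the 2 Flt3-ITD libraries. Elane, neutrophil elastase, was at 360 and 377 RPKM in WT, 699 in Flt3-ITD replicate 1 and 281 in replicate 2. Mpo, myeloperoxidase, was at 268 and 280 in WT, 464 in replicate 1 and 246 in replicate 2. Ctsg, cathepsin G, was at 243 and 258 in WT, 421 in replicate 1 and 210 in replicate 2. Replicate 1 was thus above and replicate 2 below both WT libraries in each, and the same held for Prtn3, proteinase 3, at 99.0 and 48.0 against 55.9 and 59.0. The list of 12 had a median of 0.75 in replicate 1 and -0.31 in replicate 2. By limma 0 members were called, with 0 at an unadjusted p under 0.05, and no member had both Flt3-ITD libraries on the same side of both WT libraries. The sign of the list median thus turned on which library was used. A fit with 1 Flt3-ITD library cannot test that, because its spread then comes from the WT pair alone.

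Several basophil and eosinophil genes were near WT in replicate 1 and low in replicate 2, while others were below WT in both. Prg2, the eosinophil major basic protein, was at 104 and 99.0 RPKM in WT, 126 in replicate 1 and 42.3 in replicate 2. Mcpt8, a basophil protease, was at 133 and 139 in WT, 140 in replicate 1 and 66.2 in replicate 2, and Epx, eosinophil peroxidase, was at 9.77 and 9.59, then 10.5 and 4.06. The list of 13 had medians of 0.08 and -1.02 and 1 call, Fcer1a, which fell in both libraries. In 5 members both Flt3-ITD libraries lay below both WT libraries (30.9% of all genes), and in 0 both lay above (29.6%). The monocyte marker Ly6c2 was at 35.4 and 37.4 in WT, 80.4 in replicate 1 and 37.5 in replicate 2. Haemoglobin and haem genes went the other way: Hbb-bs, a beta globin, was at 98.8 and 106 in WT, 71.1 in replicate 1 and 175 in replicate 2, and Alas2, the first enzyme of erythroid haem synthesis, at 3.61 and 3.66, then 1.90 and 5.05. Cd79a, a B cell receptor subunit, was at 2.77 and 2.71 in WT, 0.853 in replicate 1 and 2.27 in replicate 2. These genes were picked for the difference between the libraries, so the differences are a description without a test. Replicate 1 is the library with Y-linked transcripts, and the part of that difference in these values was not tested.

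**Figure D4:**
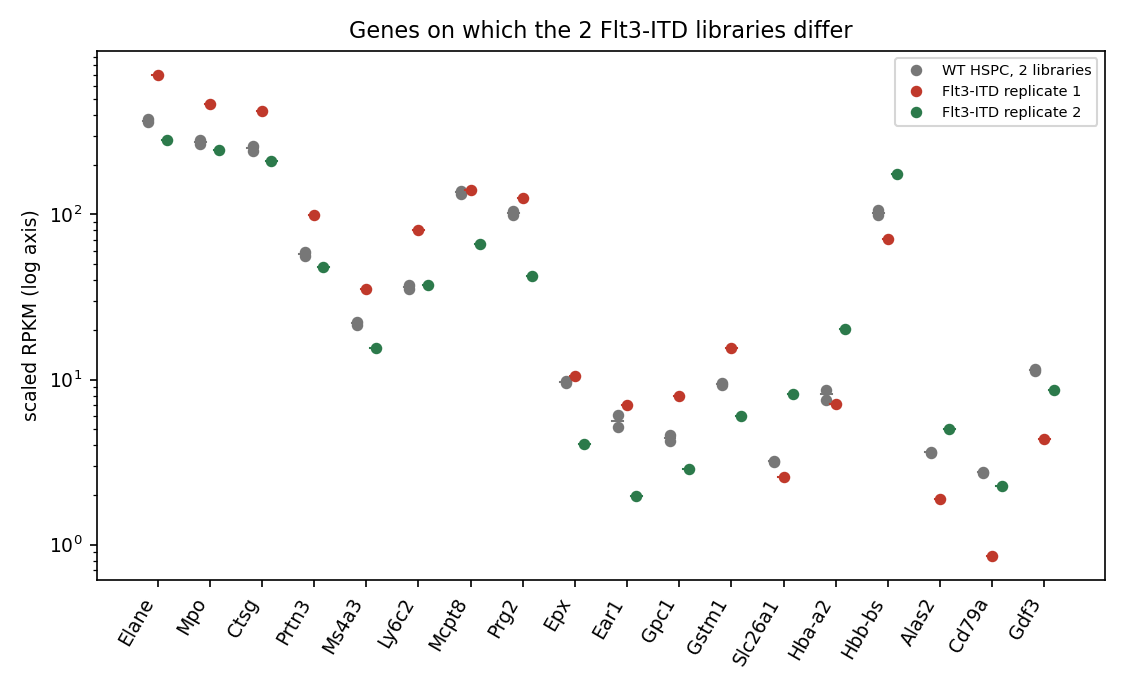
Scaled RPKM (log axis) of genes on which the Flt3-ITD libraries differ, in the 2 WT libraries (grey), Flt3-ITD replicate 1 (red) and replicate 2 (green); each point is 1 library. Elane was at 699 in replicate 1 and 281 in replicate 2 with WT at 360 and 377 between them, and Hbb-bs was at 71.1 and 175 around WT values of 98.8 and 106.

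Direct contrasts were used to see where Flt3-ITD HSPC differed from the other mutant HSPC, in a fit of all 8 HSPC libraries. That fit shares 1 spread among all HSPC groups, although the Flt3-ITD replicates differed most (standard deviation 0.227, against 0.0865 in WT). The shared spread can be too small for Flt3-ITD, and the p-values of these contrasts are then too low. Of the genes tested, 20.2% differed between Flt3-ITD and Npm1c HSPC and 75.4% between Flt3-ITD and double mutant HSPC, at a limma adjusted p under 0.05. The neutrophil genes were not shown to differ from Npm1c: in Npm1c HSPC, Ngp stood at 27.8 and 120 RPKM, a difference of 0.41 ± 0.567 on the log2 scale (limma adjusted p = 0.632), and Camp differed by 0.33 ± 0.541 (limma adjusted p = 0.686). The Npm1c libraries were far apart on these genes, with list sums of 127 and 529 RPKM. Hist1h4m was also low in Npm1c, at 17.4 and 16.7 RPKM (difference 0.14, limma adjusted p = 0.336), lower in the double mutant, at 6.86 and 8.69, and near WT HSPC in WT neutrophils, at 290 and 298. Mki67 was also low in Npm1c, at 39.0 and 41.7, but at 92.8 and 89.7 in the double mutant, 1.18 above Flt3-ITD on the log2 scale (limma adjusted p = 2.98e-05).

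Other genes set Flt3-ITD apart from Npm1c and had their highest HSPC level in the double mutant. Ifi27l2a was at 3.16 and 2.57 RPKM in Npm1c, 2.45 ± 0.196 below Flt3-ITD on the log2 scale (limma adjusted p = 0.00156), and at 238 and 245 in the double mutant. Upk1b was at 0.602 and 0.454 in Npm1c, 1.37 ± 0.0816 below Flt3-ITD (limma adjusted p = 0.000473), and at 7.13 and 6.66 in the double mutant. Hspa1b was at 1.06 and 0.999 in Npm1c (difference 1.44, limma adjusted p = 0.0145) and at 36.2 and 35.6 in the double mutant. Dusp5 was at 1.24 and 1.11 in Npm1c (difference 0.96, limma adjusted p = 0.00237) and at 20.04 and 19.55 in the double mutant. In these 4 genes the order was the same, with Npm1c lowest of the mutants, then Flt3-ITD, then the double mutant. Jun was at 77.4 and 76.7 in the double mutant and at 13.2 and 12.9 in Npm1c, where it was not shown to differ from Flt3-ITD (difference 0.34 ± 0.163, limma adjusted p = 0.179). Socs2 was at 2.35 and 2.28 RPKM in the double mutant, against 1.09 and 0.635 in Flt3-ITD. Flt3 itself was at 56.9 and 57.0 in the double mutant, 3.43 above Flt3-ITD (limma adjusted p = 2.97e-07).

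Of the genes that fell in Flt3-ITD, Col1a2, Slc41a3 and Spry4 were lower there than in Npm1c HSPC, and Jchain, Fcer1a and Pf4 were not shown to differ. Jchain was at 118 and 63.9 RPKM in Npm1c (difference -0.04 ± 0.243, limma adjusted p = 0.916) and at 10.5 and 11.8 in the double mutant. Fcer1a was at 6.42 and 5.99 in Npm1c (difference -0.53, limma adjusted p = 0.0540) and at 0.0479 and 0.235 in the double mutant. Pf4 was at 80.8 and 45.7 in Npm1c, and its difference from Flt3-ITD of -0.57 ± 0.225 did not pass (limma adjusted p = 0.113). Col1a2 was lower in Flt3-ITD than in Npm1c, where it was at 1.85 and 1.93 (difference -0.99 ± 0.136, limma adjusted p = 0.00615), and so was Slc41a3, at 6.47 and 6.09 in Npm1c (difference -0.32 ± 0.0468, limma adjusted p = 0.00773). Spry4 was at 0.803 and 0.712 in Npm1c, above Flt3-ITD (difference -0.59, limma adjusted p = 0.00988).

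**Figure D5:**
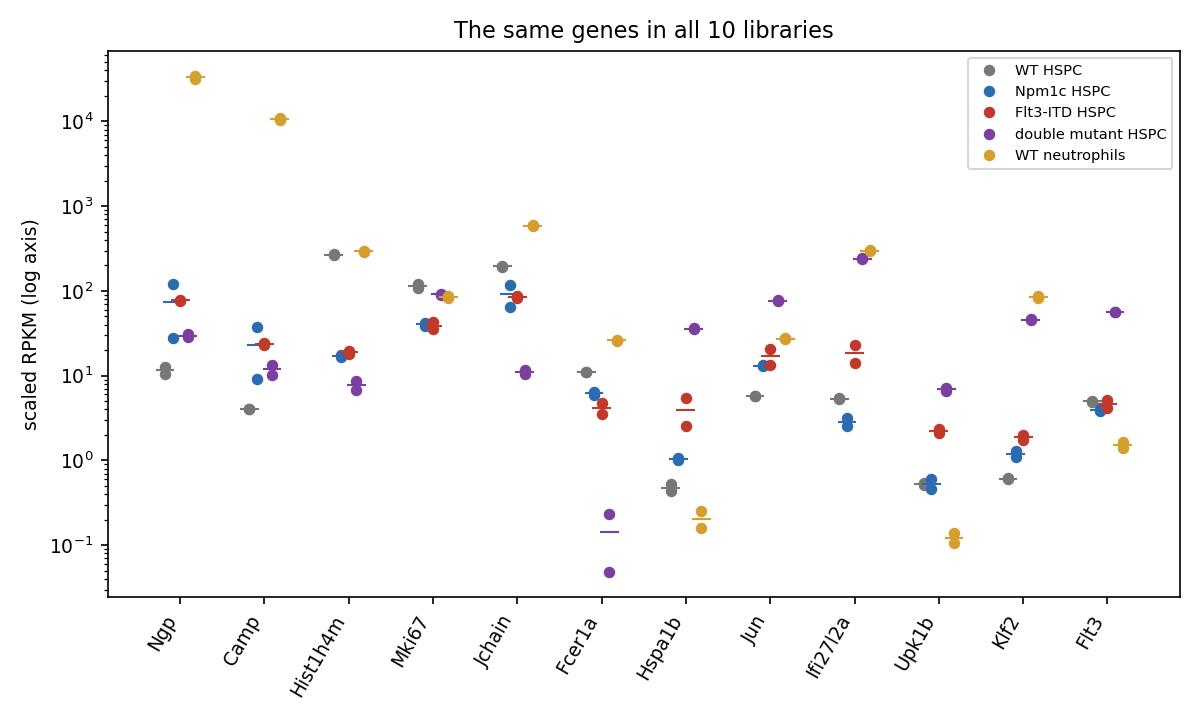
Scaled RPKM (log axis) of 12 named genes in all 10 libraries, with 2 libraries for each of WT HSPC, Npm1c HSPC, Flt3-ITD HSPC, double mutant HSPC and WT neutrophils; each point is 1 library and each bar a group mean. Upk1b is at 2.33 and 2.11 in Flt3-ITD, near 0.5 in WT and Npm1c and at 7.13 and 6.66 in the double mutant, and Hist1h4m is low in every mutant group.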

How the data were processed

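Total RNA was depleted of ribosomal RNA and sequenced from strand-marking libraries, per the labels' protocols. STAR 2.4.0 and HTSeq, besides DiffBind, appear with the build mm10, per the submitters' processing notes, which give no roles. Neither the gene annotation nor the use of strand in counting nor the treatment of reads with several matches is given in the sources used here, so genes that share or overlap reads are uncertain. The authors deposited 1 table of RPKM values for each library, and tests fit to that unit were used in place of count tests. Whole reads were recovered from the RPKM steps for 16652 of 16655 genes, within 0.02 reads, and used only for depth.

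Values were scaled by median-of-ratios (factors 1.066 and 1.06 for WT, 0.9851 and 0.895 for Flt3-ITD, from 8807 genes). The difference of log2(RPKM + 0.5) was fitted with limma 3.58.1 (R 4.3.3) on the 4 libraries, with empirical Bayes and a variance trend, and adjusted by Benjamini-Hochberg over all 8935 genes. The fit had 2 residual and 2.99 prior degrees of freedom. The script was tested on simulated data. A change held in both libraries where it was called and each Flt3-ITD library was beyond both WT libraries and at least 2-fold from their mean. Direct contrasts came from a fit of all 8 HSPC libraries. Replicates of no group had identical values.

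The groups, gene lists and members were chosen with earlier results of these data known. Named genes were Flt3; the 15 largest rises and 15 largest falls that held in both libraries with at least 2 RPKM in the higher group; up to 5 members of each of 36 lists with the smallest adjusted p; up to 10 genes in each direction that differed most between the Flt3-ITD libraries; and cell type markers. Predicted genes, small RNAs and antigen receptor segments were left out. Genes named beside a count of calls were chosen after their values were seen. Coordinates and exonic lengths are from GENCODE M21, where 8629 of the tested symbols were found, and promoters from RefSeq (GRCm38.p6). Python 3.11.15 with pandas 2.3.3, NumPy 2.4.6 and matplotlib 3.10.9 made the tables and figures. Alternatives changed the scaling, the pseudocount, the filter, the libraries fitted, library weights, a replicate block and a term for Y-linked expression, and left out each library in turn.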

Additional observations from a re-analysis of the deposited data

How the results depend on the processing

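With 2 libraries per group the fit has 2 residual degrees of freedom, and the pseudocount weighs on the changes of genes near 1 RPKM. The 74 genes higher and 149 lower became 43 and 794 on the deposited scale, 5 and 2 with no filter, 786 and 985 with all 8 HSPC libraries, and 722 and 925 with a Y-linked term in that fit. Library weights gave 124 higher, and scaling by reads on listed genes gave 560 lower. The 24 genes higher and 12 lower that were 2-fold in both libraries became 5 and 2 with no filter and 15 and 7 with a minimum of 5 RPKM, and the 12 became 20 with a pseudocount of 0.1 and 7 with 1. Leaving out 1 library at a time gave 5 to 1776 higher, 1 to 1681 lower, 5 to 47 at least 2-fold higher and 1 to 23 at least 2-fold lower. A lone library was then assumed to vary like the others, and with 1 Flt3-ITD library the 2-fold rule covers that library only. With the other HSPC groups kept in such fits, an alternative chosen after seeing the data, the counts without WT replicates 1 and 2 were 85 and 41 higher, 95 and 75 lower, 7 and 7 at least 2-fold higher and 7 and 5 at least 2-fold lower; without Flt3-ITD replicates 1 and 2 they were 1240 and 1588, 1470 and 1480, 22 and 37, and 22 and 20. Across both kinds of fit, without Flt3-ITD replicate 1 and then without replicate 2, the changes were -0.24 and 0.056 (0.055 in the wider fit) for Flt3, -0.16 and 0.76 for Mpo, -0.26 and 0.75 for Ctsg, -0.26 and 0.78 for Prtn3 and -1.03 and 0.045 (0.044 in the wider fit) for Mcpt8, so the sign of each turned on 1 library. The change of Ctsg was also -0.043 with the Y-linked term. Samples of WT and Flt3-ITD share only replicate numbers, and their deviations correlate at -0.0517; the replicate block gave 50 higher and 78 lower, and all 36 genes that were 2-fold in both libraries were still called. These 36 genes were also all called on the deposited, listed-gene and quantile scales and with a pseudocount of 0.1; 35 were with a pseudocount of 1 or library weights, 30 with all 8 libraries, 27 with the Y-linked term, 6 with no filter and 6 without either WT library. The causes of these shifts were not tested.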

Other observations

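Transcripts of the mitochondrial genome were above WT in both Flt3-ITD libraries for 12 of 13 genes (29.6% of all genes tested), with medians of 0.30 in replicate 1 and 0.57 in replicate 2. By limma 0 of them were called, with 9 higher and 0 lower at an unadjusted p under 0.05 (12.6% and 14.5% of all genes). mt-Atp8, an ATP synthase subunit, was at 12.8 and 14.3 RPKM in WT and 22.95 and 35.51 in Flt3-ITD (limma adjusted p = 0.0692), and mt-Cytb at 626 and 644 in WT and 815 and 1043 in Flt3-ITD (limma adjusted p = 0.0895).

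The largest difference between the Flt3-ITD libraries was in a gene outside the naming rule, chosen after its values were seen. Gm8730, annotated as a processed pseudogene (chr8:102864845-102865798, minus strand, GRCm38), was at 6.35 and 6.74 RPKM in WT HSPC, 10.2 in Flt3-ITD replicate 1 and 384 in replicate 2. It was at 410 and 413 in Npm1c HSPC, 369 and 357 in the double mutant and 2.94 and 3.05 in WT neutrophils. Rplp0, a ribosomal stalk protein gene, was at 868 and 911 in WT HSPC and 838 and 679 in Flt3-ITD.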
